A study of Mus musculus with 7 samples.

Results

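Tissue kallikreins are secreted trypsin-like or chymotrypsin-like serine proteases encoded side by side in 1 gene cluster. The 5 genes examined here, Klk6, Klk7, Klk8, Klk10 and Klk11, are 5 of the 26 tissue kallikrein genes in the gene table, which lists 31053 genes in all. They were selected on their measured levels in PyMT mammary tumors, where Klk6 and Klk10 differ most from the other tumors, so their PyMT levels are given as a description with no test. The label under which they were grouped, raised in PyMT, held for Klk6 and Klk10 in both PyMT libraries. Klk7 and Klk11 were highest in PyMT but at low levels, and Klk11 in PyMT B lay close to 1 BRCA1-null library. The label did not hold for Klk8, whose highest level was in a BRCA1-null library.

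Sorted CD24+ Lin- (CD31-, CD45-, Ter119-) cells of untreated mammary tumors of adult mice were profiled with the 10x Chromium platform, which counts each captured transcript once at its 3' end by a unique molecular identifier (UMI). PyMT tumors (replicates A and B, FVB/NJ) grew from transplanted cells of FF99WT, a single line from an MMTV-PyMT tumor with floxed FIP200 alleles and no Cre, so oncogene, line and transplantation cannot be told apart. Neu tumors (A and B, FVB/NJ) arose in MMTV-Neu mice, the Neu A tumor also carrying floxed FIP200 alleles without Cre. BRCA1-null tumors (A and B, FVB/NJ) arose in K14-Cre mice with Brca1 F/F and Trp53 F/F alleles, where the keratin 14 promoter drives Cre in basal epithelium. A single library came from cells of the 4T1 line grown in BALB/C mice, transduced with pLenti-GFP before transplantation. In PyMT and Neu the transgenes are driven by the MMTV promoter, which is active in mammary epithelium.

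Of 13745 barcodes, 12168 cells passed the limits of at least 1000 UMIs, at least 500 genes and under 20% mitochondrial UMIs, 3789 of them from PyMT. BRCA1-null A held only 245 cells and 5578911 UMIs, whereas the other libraries held 1751 to 2308 cells and 18119851 to 37693300 UMIs. Epcam, an adhesion protein that marks epithelium, was at 218 CPM (UMI counts per 1000000 UMIs) in BRCA1-null A and at 1449 to 3878 in the other 6 libraries. Krt8, Krt18, Cldn3 and Cldn4, other luminal epithelial markers, were also lowest in BRCA1-null A. Krt19 and Cd24a were not. Krt19 was at 183.2 CPM in BRCA1-null A, above PyMT B (16.9) and Neu A and B (2.36 and 1.06). Cd24a was at 341.6 CPM in BRCA1-null A, above 4T1 (265.1 plain CPM). Cells with UMIs of at least 3 immune, endothelial or fibroblast markers numbered 449 of 1901 in BRCA1-null B, 10 of 222 in BRCA1-null A, 6 of 1685 in 4T1 and 0 or 1 in each PyMT and Neu library. Among the cells kept, 213 shared a barcode sequence with another library, and those outside PyMT that shared one with a PyMT library held 0 to 3 Klk10 UMIs per library.

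As background, tissue kallikreins are made as inactive proenzymes and act outside the cell, where they activate one another, cut adhesion proteins and growth factor binding proteins, and signal through protease-activated receptors. In skin Klk7 sheds corneodesmosomes and is held in check by the inhibitor encoded by Spink5. Klk6 and Klk8 (neurosin and neuropsin) are best known from the nervous system and from skin, and the human counterpart of Klk10 was described as a gene whose expression was lost in breast cancer cells. Klk11 encodes a trypsin-like member of the family.

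All 5 genes lie on the + strand of chromosome 7 (GRCm38) within 57.4 kb of a kallikrein cluster that spans 539.0 kb. In the GENCODE M21 annotation Klk11 runs from 43774604 to 43779263, Klk10 from 43781035 to 43785410, Klk8 from 43797577 to 43803826, Klk7 from 43811294 to 43816359 and Klk6 from 43824499 to 43832030. Klk9 sits between Klk10 and Klk8. The noncoding gene 2310002F09Rik overlaps Klk11, Klk10 and Klk8 on the opposite strand, in an exon only for Klk8. The promoters of Klk10 and Klk6, which had the largest PyMT levels relative to the other tumors, and of Klk8, which followed another pattern, are shown as the 250 bases before the RefSeq start site (GRCm38.p6), with the letters TTAAAA in capitals.
Klk10 (chr7:43780804-43781053, + strand): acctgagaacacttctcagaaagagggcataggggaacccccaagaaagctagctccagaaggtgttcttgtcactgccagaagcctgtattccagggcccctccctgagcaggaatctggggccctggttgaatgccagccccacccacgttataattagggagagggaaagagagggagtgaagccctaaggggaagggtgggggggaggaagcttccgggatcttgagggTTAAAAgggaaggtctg
Klk6, downstream start site (chr7:43825200-43825449, + strand): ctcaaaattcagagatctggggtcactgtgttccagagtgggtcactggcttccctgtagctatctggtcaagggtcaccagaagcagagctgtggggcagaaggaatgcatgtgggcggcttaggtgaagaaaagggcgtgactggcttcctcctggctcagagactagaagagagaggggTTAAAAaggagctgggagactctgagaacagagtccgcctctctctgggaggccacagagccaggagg
Klk8 (chr7:43797327-43797576, + strand): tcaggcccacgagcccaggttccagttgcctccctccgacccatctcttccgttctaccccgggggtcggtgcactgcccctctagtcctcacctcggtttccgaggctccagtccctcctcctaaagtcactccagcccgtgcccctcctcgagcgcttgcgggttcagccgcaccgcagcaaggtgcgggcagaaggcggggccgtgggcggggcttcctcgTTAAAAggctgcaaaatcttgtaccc
TTAAAA began 17 bases before the start site in Klk10, 26 in Klk8 and farther upstream in Klk6. The letters were picked after these promoters had been read. On either strand they occur in 5826 of 32851 RefSeq promoters of the same length (17.7%) and in 15 of the 28 promoters of the 26 kallikrein genes. The promoter of Klk7, the upstream promoter of Klk6 and the downstream promoter of Klk11 did not hold them. TATAAA (12.4% of all promoters) and TGANTCA (6.75%) occurred on neither strand of the 7 promoters of the 5 genes, and GGGCGG (32.7%) occurred in Klk8, Klk7 and both Klk6 promoters. A match of letters is a description of the sequence and not a binding site.

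Klk10 was at 1284 and 1036 CPM in PyMT A and B, where CPM are UMIs summed over the cells of a library and scaled to the library total by TMM. The other tumors held 8.29 (BRCA1-null A), 35.1 (BRCA1-null B), 7.31 (Neu A) and 4.20 CPM (Neu B), and the 4T1 library held 12.1 plain CPM (exact Poisson 95% interval 10.7 to 13.7, counting error only). Both PyMT libraries lay far above all others. The PyMT mean was 1160 ± 176 CPM (SD, n = 2 grafts of the same line). The means were 21.7 ± 18.9 in BRCA1-null and 5.75 ± 2.199 in Neu (SD, n = 2 tumors each). PyMT was thus 53.5 times BRCA1-null and 202 times Neu. The PyMT SD is a spread between grafts, not between tumors of separate origin. After PyMT came BRCA1-null, 4T1 and Neu in that order. The 4T1 level lay between the BRCA1-null libraries, and BRCA1-null A lay close above Neu A.

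Klk6 was at 89.3 and 116 CPM in PyMT A and B. It was at 1.60 and 1.54 CPM in BRCA1-null A and B, at 0.473 and 0.352 in Neu A and B and at 0.742 plain CPM in 4T1 (0.416 to 1.22). Every library outside PyMT was at 1.60 CPM or below. PyMT was 65.5 times BRCA1-null and 249 times Neu. The BRCA1-null libraries lay close together (1.57 ± 0.0445 CPM) and above both Neu libraries (0.412 ± 0.0851 CPM), although this is a level of 11 and 48 UMIs against 11 and 11.

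Klk8 had another order. It was at 49.0 CPM in BRCA1-null B, at 15.1 plain CPM in 4T1 (13.5 to 16.9), at 13.2 and 11.2 CPM in PyMT A and B, and at 0.436, 0.215 and 0.224 CPM in BRCA1-null A, Neu A and Neu B. The 2 BRCA1-null tumors differed 112 times in Klk8, with 3 UMIs in A and 1531 in B, so the BRCA1-null range spans PyMT and 4T1. BRCA1-null B was at 4.02 times the PyMT mean, and PyMT was 55.5 times Neu.

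Klk11 and Klk7 were scarce. Klk11 had 73 and 57 UMIs in PyMT A and B (4.57 and 1.70 CPM), 44 in BRCA1-null B (1.41 CPM), 1 in Neu B and none in BRCA1-null A, Neu A or 4T1, so PyMT B and BRCA1-null B lay close together. Klk7 had 12 and 38 UMIs in PyMT (0.752 and 1.14 CPM), 12 in BRCA1-null B (0.384 CPM), 10 in 4T1 (0.495 plain CPM), 1 in Neu A and none in BRCA1-null A or Neu B. The PyMT levels of Klk7 exceeded every other library, but by less than 1 CPM over 4T1 and BRCA1-null B.

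**Figure D1:**
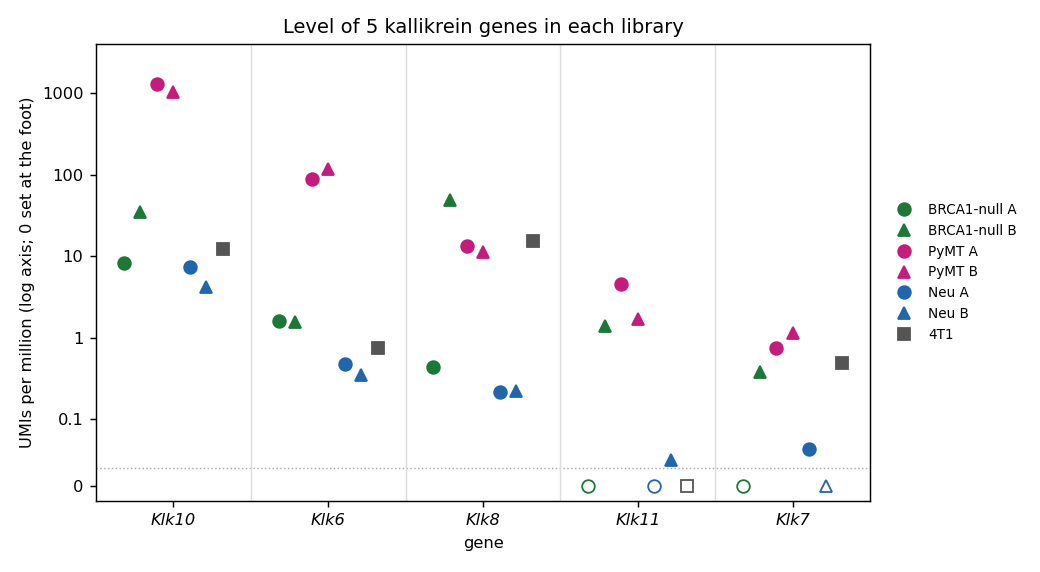
Level of each gene (CPM, log axis, TMM-scaled except for 4T1) in each library, circles for replicate A, triangles for B, a square for 4T1 and open symbols at the foot for 0 UMIs. Klk10 (1284 and 1036) and Klk6 (89.3 and 116) stand apart in PyMT, whereas the highest Klk8 value is BRCA1-null B at 49.0.

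The question that the choice of the genes leaves free is whether they differ between the other tumor types. All 5 passed the filter on low counts, and Klk6 and Klk8 were higher in BRCA1-null than in Neu with none lower, against 16.3% of all 13950 genes tested called higher and 12.8% called lower. The log2 fold change of Klk6 was 1.92 (standard error 0.352, adjusted p = 0.0111, edgeR's quasi-likelihood test with Benjamini-Hochberg adjustment), and both BRCA1-null libraries were above both Neu libraries. Without Neu A the adjusted p of Klk6 was 0.0672 and without Neu B it was 0.1. The log2 fold change of Klk8 was 6.80 (standard error 1.79, adjusted p = 0.0313 by edgeR), carried by BRCA1-null B. Without BRCA1-null B it was 0.92 (adjusted p = 0.474), and with the replicate letter as a block the adjusted p was 0.0589. The Klk8 call was also lost without PyMT A (adjusted p = 0.0642), PyMT B (0.0657), Neu A (0.167) or Neu B (0.169), where the spread is estimated from fewer libraries.

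Klk10 did not pass this test (log2 fold change 1.94, standard error 0.650, adjusted p = 0.0636 by edgeR), but did so with DESeq2 (0.0121), with no filter on low counts (0.000107) or without BRCA1-null A (0.00334). Its log2 fold change was 0.48 without BRCA1-null B. Klk11 (adjusted p = 0.0568) and Klk7 (adjusted p = 0.117) rest on 44 and 12 UMIs of BRCA1-null B and at most 1 UMI per Neu library, so their fitted folds depend on the prior count. Klk11 passed with DESeq2 (0.0250), with no filter (0.000365) or without BRCA1-null A (0.00944). BRCA1-null B also differed from BRCA1-null A in Epcam (1785 against 218 CPM) and in Krt14, a basal keratin (1544 against 45.8 CPM). Krt5, another basal keratin, was higher in B as well (95.9 against 21.5 CPM). Other genes listed as basal markers were not higher in B, namely Acta2 (172.8 against 184.8), Trp63 (10.8 against 27.9) and Oxtr (0.800 against 3.49). Cd24a was at 373 CPM in B and 341.6 in A. The part of these genes in the kallikrein levels was not tested.

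Within PyMT tumors Klk10 was uneven between cells. With every cell thinned to 3000 UMIs, 936 of 1849 PyMT A cells (50.6%, exact Clopper-Pearson 95% interval 48.3 to 52.9) and 806 of 1794 PyMT B cells (44.9%, 42.6 to 47.3) had a Klk10 UMI. Before thinning the shares were 63.3% and 71.7%, at median depths of 9241 and 19410 UMIs per cell. At the mean of 3.02 and 2.47 UMIs per thinned cell, a Poisson count would leave 4.89% and 8.43% of cells without a UMI, whereas 49.4% and 55.1% had none. Cells with 10 or more Klk10 UMIs made up 10.1% and 7.47%, and the variance was 10.2 and 12.9 times the mean. The single highest cells held 200 and 504 Klk10 UMIs before thinning, 0.975% and 1.45% of the Klk10 UMIs of their libraries. Thus no single cell set the library level. The part of the level held by the cells with 10 or more UMIs was not measured. Intervals cover counting error only, since cells of 1 tumor are not replicates.

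Outside PyMT the Klk10 share at 3000 UMIs was 4.95% in BRCA1-null A, 5.05% in BRCA1-null B, 3.56% in 4T1, 2.02% in Neu A and 0.924% in Neu B. No Neu cell held more than 2 Klk10 UMIs at full depth, and the 170 UMIs of Neu A were spread over 166 cells and the 131 of Neu B over 129. In BRCA1-null B, cells with at least 3 fibroblast, immune or endothelial markers had a share of 3.34% (1.88 to 5.45, median depth 10496 UMIs) against 5.58% (4.45 to 6.89, median depth 14126) in its other cells. Of these 449 cells 434 met the fibroblast markers, and whether they are fibroblasts or tumor cells with fibroblast genes was not tested, so their share is not a measure of free RNA. Neu A, Neu B, PyMT A and PyMT B held 0 or 1 such cells at 3000 UMIs, so these libraries give no background share of their own, and how much of the low Neu shares is free RNA was not tested.

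**Figure D2:**
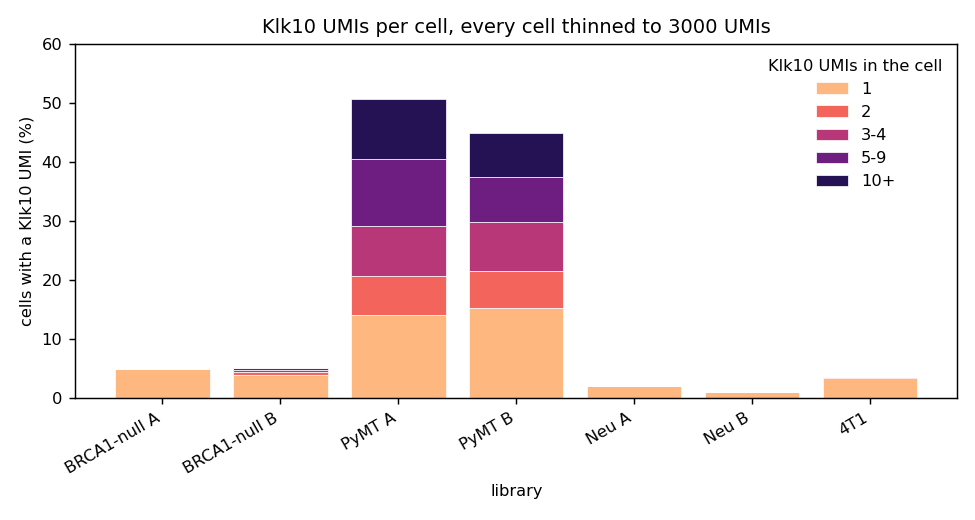
Percent of cells with a Klk10 UMI in each library, every cell thinned to 3000 UMIs, with bars divided by the number of Klk10 UMIs in the cell. Cells with 10 or more make up 10.1% of PyMT A and 7.47% of PyMT B and are nearly absent elsewhere (1 cell of 1901 in BRCA1-null B).

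Klk6 was found in fewer PyMT cells, 7.41% of PyMT A (6.26 to 8.70) and 12.6% of PyMT B (11.1 to 14.2), and was also uneven, with a variance of 6.68 and 4.65 times the mean. Up to 48 and 79 Klk6 UMIs were found in a single PyMT cell before thinning, against at most 1 in a Neu cell. Klk8 had a UMI in 2.49% and 2.84% of thinned PyMT cells, Klk11 in 1.03% and 0.557% and Klk7 in 0.162% and 0.111%. In PyMT the intervals of A and B overlapped for these 3 genes. At their means a Poisson count would leave 96.8% (Klk8), 99.0% (Klk11) and 99.8% (Klk7) of thinned PyMT A cells without a UMI. In PyMT B it would leave 96.4%, 99.4% and 99.8%. Shares about this low would thus be found even with the UMIs spread over all cells. Whether they came from few cells cannot be told at this depth. Cells without a UMI of any of the 5 genes numbered 874 in PyMT A and 901 in PyMT B, cells with 1 gene 818 and 710, with 2 genes 148 and 164, and with 3 genes 9 and 19. None had 4 or 5.

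Klk6 and Klk10 were found in the same cells more often than the product of their shares. In PyMT A 117 cells held both where 69.35 would be found if they were independent (ratio 1.69), and in PyMT B 159 held both against 101.5 (ratio 1.57). The share of cells with Klk6 was 2.19% in PyMT A cells with no Klk10 UMI, 7.57% with 1 to 2, 10.3% with 3 to 4 and 18.1% (14.4 to 22.2) with 5 or more. In PyMT B these shares were 6.78%, 11.1%, 22.3% and 30.6% (25.2 to 36.5). Both libraries showed the same order, and the intervals of the lowest and highest group did not overlap. Still, 67 of the 226 PyMT B cells with Klk6 had no Klk10 UMI at this depth, as did 20 of 137 in PyMT A.

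The other pairs involved few cells. Klk6 and Klk8 were together in 8 PyMT A cells against 3.408 by the product of shares, and in 19 PyMT B cells against 6.425. Klk8 and Klk10 were together in 31 cells against 23.29 in PyMT A and in 29 against 22.91 in PyMT B, a ratio of 1.33 and 1.27. Klk10 and Klk11 were together in 15 cells against 9.618 and in 8 against 4.493. No PyMT cell held both Klk8 and Klk11, where 0.4727 and 0.2843 cells would be found by the product, so the depth cannot show whether they avoid each other. In 4T1, where Klk8 (4.81% of cells) and Klk10 (3.56%) were both found, 1 cell held both against 2.884.

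**Figure D3:**
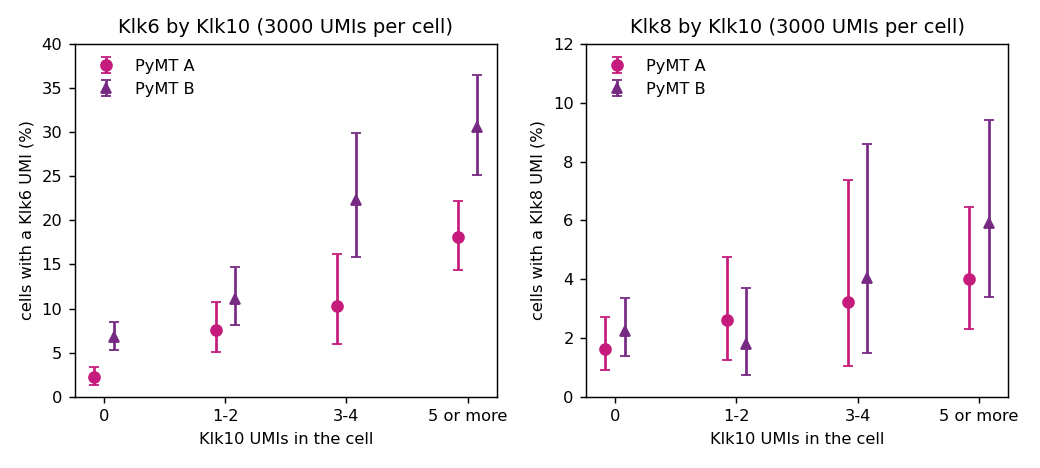
Percent of PyMT cells with a Klk6 UMI (left) and with a Klk8 UMI (right) by the number of Klk10 UMIs in the same cell, every cell thinned to 3000 UMIs, with exact 95% intervals (counting error only). Klk6 goes from 2.19% to 18.1% in PyMT A and from 6.78% to 30.6% in PyMT B, whereas the Klk8 intervals mostly overlap.

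Over PyMT cells, Klk6 was also the gene most like Klk10 of 4277 genes with a UMI in at least 5% of cells of both libraries (Pearson r of log2(1 + UMIs per 10000) 0.245 in PyMT A and 0.272 in PyMT B, ranked by the lower value). It was followed by Wfdc18 (0.223 and 0.294), which encodes a secreted whey acidic protein domain protein, Rbp7 (0.152 and 0.161), a retinoid-binding protein, Aldh1a3 (0.145 and 0.190), a retinaldehyde dehydrogenase of luminal progenitors, and Tagln2 (0.146 and 0.139). The most opposite genes were Itm2b (-0.175 and -0.137), Cst3 (-0.129 and -0.171), 1500015O10Rik (-0.149 and -0.126), Malat1 (-0.158 and -0.115) and Jun (-0.112 and -0.115). These correlations are weak, are over cells of the same tumor thinned to the same depth, and are given as a description. Across the 7 libraries, the gene most like the mean of Klk6 and Klk10 of 2177 genes ranked was Ltf, encoding lactoferrin (r = 0.996, log2(CPM + 1)), at 5587 and 3276 plain CPM in PyMT and 18.45 to 111.6 elsewhere. Eif4a3 (0.988), Efhd2 (0.982), Arf2 (0.973) and Fam104a (0.966) came next, and all 5 follow the gap between PyMT and the rest.

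PyMT cells were then split by a UMI of genes that mark milk, progenitor or stress programs in the mammary gland. Klk10 was higher in cells with Ltf than without, at 1070 against 685 CPM of thinned cells in PyMT A and at 991 against 284 in PyMT B, ratios of 1.56 and 3.48. Cells with Aldh1a3 had ratios of 1.52 and 2.46 for Klk10. Lalba, the milk protein alpha-lactalbumin, gave 1.40 and 1.30, Cd14, a receptor for bacterial lipopolysaccharide, 1.19 and 1.46, and Csf3, the granulocyte growth factor, 1.16 and 1.27. For Klk10 these 5 ratios were above 1 in both libraries, whereas H2-Aa, an MHC class II chain, gave 1.28 in PyMT A and 0.763 in PyMT B.

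Klk6 did not follow Klk10 across these splits. It was lower in cells with Cd14 (ratios of 0.634 and 0.646), Lalba (0.809 and 0.745) and Csf3 (0.814 and 0.867), higher with Ltf (1.30 and 1.27), and without a shared direction for Aldh1a3 (0.986 in PyMT A, and 143 against 97.0 CPM in PyMT B) and H2-Aa (1.37 and 0.827). Few PyMT A cells held the remaining genes. Csn2, encoding beta-casein, was found in 20 PyMT A and 522 PyMT B cells, with Klk10 ratios of 2.03 and 1.52. Krt14 was found in 23 and 95 cells (0.761 and 1.11) and Top2a, a marker of cycling cells, in 7 and 46 (1.52 and 1.79). Differences between cells of 1 tumor were not tested, and the number of tumors is 2, both grafts of the same line.

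**Figure D4:**
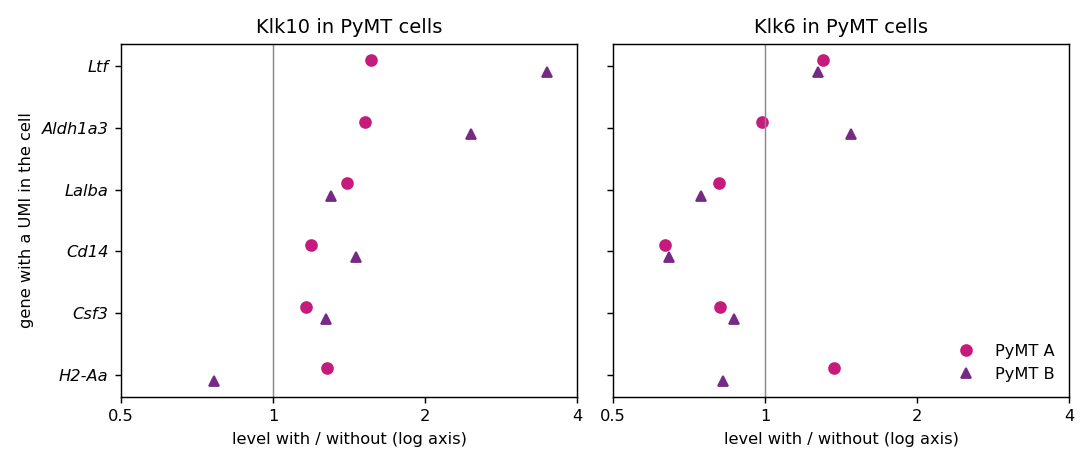
Ratio of the Klk10 level (left) and the Klk6 level (right) in PyMT cells with a UMI of the named gene to that in cells without (log axis), circles for PyMT A and triangles for PyMT B, every cell thinned to 3000 UMIs. Klk10 lies above 1 in both libraries for 5 of the 6 genes, up to 3.48 for Ltf in PyMT B, whereas Klk6 lies below 1 for Lalba, Cd14 and Csf3.

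Klk8 was found in more cells of BRCA1-null B than of any other library, and its level was also highest there. Its variance was 1.52 times the mean, against 1.75 and 1.54 in PyMT A and B. At 3000 UMIs 213 of 1901 cells (11.2%, 9.82 to 12.7) had a Klk8 UMI, and at full depth 631 of 2078 did, with at most 20 in a cell. Cells with a Krt14 UMI had Klk8 in 14.7% (12.7 to 16.9) against 6.16% (4.58 to 8.09) of cells without, at 61.2 against 24.0 CPM of thinned cells. Cells with at least 3 fibroblast, immune or endothelial markers had Klk8 in 5.79% (3.82 to 8.37) against 12.9% (11.2 to 14.7) in the others. Cells with Epcam had Klk8 in 12.5% (10.8 to 14.3) against 7.42% (5.22 to 10.2) without, and cells with Vim, a mesenchymal filament gene, in 12.6% (10.9 to 14.4) against 6.97% (4.82 to 9.70). With Col1a1, a fibroblast marker, the share was lower, 5.60% (3.69 to 8.10) against 13.0% (11.3 to 14.9) without. With Acta2, a smooth muscle actin, the share was 10.4% against 11.4% without, and with Krt8 10.7% against 12.1%, with overlapping intervals for both. Thus the Klk8 share differed with Krt14, Epcam, Vim and Col1a1 beyond counting error. Krt14 and Acta2 did not give the same order. This library also held the pericyte marker Rgs5 (73.4 CPM), and whether its Acta2 came from basal cells was not tested. In 4T1 the share was 4.39% with Krt14 and 5.45% without, with overlapping intervals.

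Of the 21 other tissue kallikreins, 11 had at least 3 UMIs in a library, 8 passed the filter and 7 had no UMI anywhere. Among the 8 tested, 6 were higher in PyMT than in the mean of BRCA1-null and Neu and none lower by edgeR (none lower at an unadjusted p under 0.05 or by DESeq2), against 7.05% of all genes tested called higher and 7.37% called lower. A gene can pass the filter through its PyMT libraries alone, so this count describes the genes that passed and is no support for the family. Klk14 was at 9.14 and 9.08 CPM in PyMT and at most 1.31 elsewhere (adjusted p = 0.0193 by edgeR). Klk9, between Klk10 and Klk8, was at 4.45 and 1.31 CPM in PyMT and had at most 5 UMIs in each BRCA1-null and Neu library. Klk12, next to Klk11, was at 2.63 and 1.37 CPM with no UMI in any other library. Klk1b26 (11.9 and 6.93 CPM), Klk1b1 (5.51 and 2.06) and Klk1b27 (2.51 and 2.99) had at most 9, 2 and 1 UMIs in each BRCA1-null and Neu library. These 5 genes were near or at 0 UMIs outside PyMT, so no p is given for them. The Klk1b genes are close copies of one another, so reads may be split or shared between them and their values are uncertain. Without PyMT A the call was lost for all 6, and without PyMT B for 4. Klk14 also lost it without Neu A or Neu B, and Klk1b27 without Neu A.

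Klk1b11 and Klk13 were not called in PyMT (adjusted p = 0.0609 and 0.0525 by edgeR) and had orders of their own. Klk1b11 was highest in Neu (11.9 and 14.5 CPM), at 5.57 and 5.62 CPM in PyMT and at 0 and 0.320 in BRCA1-null, and BRCA1-null lay below Neu with a log2 fold change of -5.79 (adjusted p = 0.00353). It passed in PyMT with DESeq2 (adjusted p = 0.00742), with no filter (0.00333), and without BRCA1-null A (0.0165) or B (0.0084). Klk13 had 14 and 32 UMIs in PyMT, 1 and 32 in BRCA1-null and none in Neu, and was higher in BRCA1-null than in Neu (adjusted p = 0.0248), a call that rests on BRCA1-null B (adjusted p = 0.159 without it). Klk13 also lost that call without PyMT A (0.0676), PyMT B (0.0731), Neu A (0.116) or Neu B (0.134), and passed in PyMT with DESeq2 (0.0442), with no filter (0.00489), and without BRCA1-null A (0.0346) or B (0.0209). Klk5, the neighbor of Klk6, had at most 2 UMIs in any library.

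**Figure D5:**
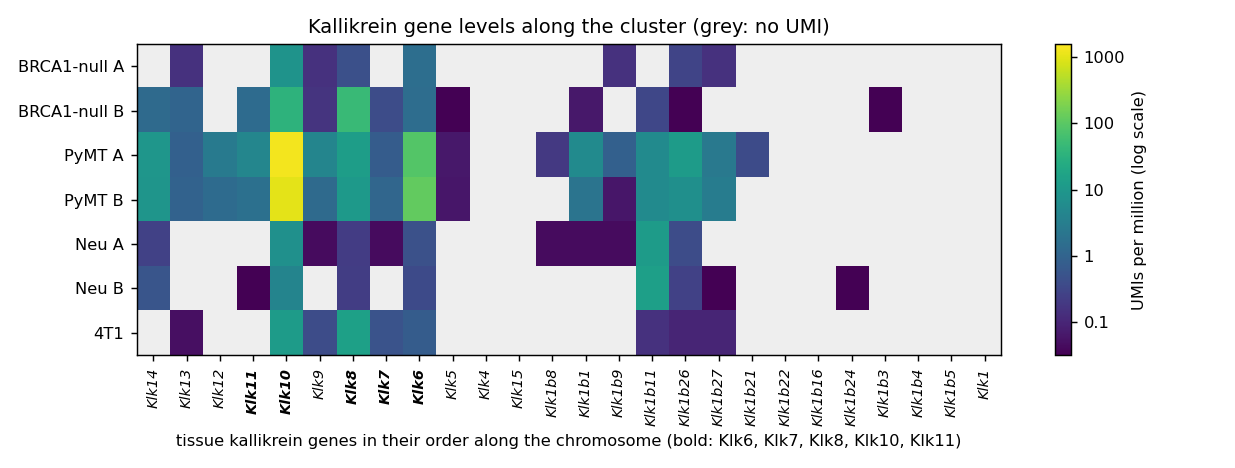
Level of each of the 26 tissue kallikrein genes (columns, in their order along the chromosome) in each library (rows), colored by CPM on a log scale, grey for no UMI. The highest values are those of Klk10 and Klk6 in PyMT, Klk1b11 is highest in Neu, and the genes at the right end had few or no UMIs.

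Few genes next to the cluster could be tested. Of 24 genes other than kallikreins within 200 kb, 6 passed the filter and none was called in PyMT by edgeR (2 at an unadjusted p under 0.05), with log2 fold changes from -4.37 (Syt3) to 1.36 (1700028J19Rik) and adjusted p from 0.0501 to 0.567. Over all genes tested 7.05% were called higher in PyMT and 7.37% lower. No call among 6 genes is near these shares and is no result about the neighbors. This set was defined by position after the kallikrein levels had been seen.

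Inhibitors of these proteases were called in both directions in PyMT. Of 9 in the list 8 were tested, 3 were higher than the mean of the other types on the log scale, 2 lower and 3 were not called. For comparison, 7.05% of all genes tested were called higher and 7.37% lower. The median log2 fold change was 1.15 against -0.11 over all genes. Serpina3n, a serine protease inhibitor of the acute phase, fell to 1.63 and 1.97 CPM from 102.7 and 203.3 in Neu and 19.5 and 59.0 in BRCA1-null (log2 fold change -5.42, standard error 0.654, adjusted p = 0.00578 by edgeR). A2m, a broad protease trap, also fell (-4.46, adjusted p = 0.0267 by edgeR), to 4 and 2 UMIs in PyMT (0.251 and 0.0597 CPM). Neu was at 13.3 and 5.99 CPM and BRCA1-null at only 1.75 and 0.448, so the fall was mostly from Neu. Spint1, an inhibitor of membrane serine proteases, rose against the mean of the other types (1.77, adjusted p = 0.0254), at 67.0 and 40.4 CPM, but Neu was at 34.5 and 35.9, so the rise was mostly over BRCA1-null (4.07 and 9.67 CPM). The other 2 higher calls, named after their values were seen, did not place PyMT above both types. Spink5 was at 14.0 and 25.2 CPM in PyMT, above BRCA1-null (0 and 0.544) and below Neu (45.6 and 28.4). Slpi, a secreted leukocyte protease inhibitor, was at 936.6 and 240.7 CPM in PyMT, above Neu (27.4 and 11.3) and on both sides of BRCA1-null (652.8 and 925.5). Leaving out either PyMT library ended the calls of Serpina3n, A2m and Spint1 (adjusted p from 0.0641 to 0.222), and leaving out either Neu library ended those of A2m and Spint1 (0.0597 to 0.104). No inhibitor was called higher by edgeR with any of these 4 libraries left out.

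Among 9 tested of 13 substrates and receptors, 4 rose, 2 fell and 3 were not called (median 0.96). The shares over all genes tested were 7.05% higher and 7.37% lower. Plaur, the urokinase receptor, was at 363.8 and 423.4 CPM in PyMT, 31.4 and 66.6 in BRCA1-null and 2.54 and 6.34 in Neu, a log2 fold change of 4.73 ± 0.444 (standard error) with adjusted p = 0.00386 by edgeR. Cdh1, E-cadherin, was at 256 and 188.9 CPM against 20.4 to 54.3 in the 4 other tumors of the fit (2.52, adjusted p = 0.00671). F2r, the thrombin receptor PAR1, fell to 1.19 and 0.926 CPM (-2.63, adjusted p = 0.00749), but Neu was equally low (1.33 and 1.57 CPM), so the difference was from BRCA1-null (23.9 and 34.2 CPM). The other lower call, Fn1, fibronectin, had the same order (2.44 and 1.31 CPM in PyMT, 1.55 and 1.67 in Neu, 54.0 and 300.7 in BRCA1-null). The remaining higher calls, named after their values were seen, were F2rl1, the protease-activated receptor PAR2, and L1cam. F2rl1 was at 47.2 and 42.7 CPM in PyMT against 2.47 to 9.64 in the 4 other tumors of the fit (3.12, adjusted p = 0.00928 by edgeR). The 4T1 library held 47.1 plain CPM of F2rl1. L1cam was at 5.45 and 9.05 CPM in PyMT against 0.516 to 1.44 (2.76, adjusted p = 0.0159 by edgeR). Cdh1 and F2r lost the call without PyMT A (adjusted p = 0.0618 and 0.0685) or without PyMT B (0.0505 and 0.0871).

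Of 12 other epithelial serine proteases 2 rose, none fell and 10 were not called by edgeR, with 5 higher and 0 lower at an unadjusted p under 0.05. Their median log2 fold change was 1.25. Beside them stand 7.05% of all genes tested called higher and 7.37% called lower. Prss23 was at 15.8 and 17.7 CPM in PyMT, between BRCA1-null (9.74 and 38.0) and Neu (0.301 and 0.384), with adjusted p = 0.0236 by edgeR. Hpn, encoding hepsin, was at 14.8 and 24.9 CPM against at most 7.30 (adjusted p = 0.0482), and Plat, tissue plasminogen activator, just missed (50.4 and 18.2 CPM, adjusted p = 0.0507). The count depended on the settings, from 0 with PyMT A, PyMT B, Neu A or Neu B left out and 1 with every barcode to 4 with DESeq2, 5 with the replicate block and 7 with no filter. With the replicate block Plat passed (adjusted p = 0.0122).

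The list of the cornified epithelium, where kallikreins are known to work, held no higher call in PyMT by edgeR. Of 16 tested of 21 none rose, 2 fell and 14 were not called (median -0.98), with 1 higher and 5 lower at an unadjusted p under 0.05. Most genes of any kind were not called, since 7.05% of all genes tested were higher and 7.37% lower. With DESeq2 1 was called higher and without a filter 3. Dsc2, a desmosomal cadherin, fell to 0.188 and 0.120 CPM from 12.8 and 12.9 in Neu and 1.75 and 3.97 in BRCA1-null (log2 fold change -5.36, adjusted p = 0.00507 by edgeR). Krt1, a keratin of differentiated epidermis, had adjusted p = 0.0397 and lost the call with the replicate block (0.0556), and Lor, loricrin, missed it (0.0555). Dsc2 lost the call without PyMT B (adjusted p = 0.0618), and Krt1 without any library but BRCA1-null A (0.0505 to 0.243).

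Of 10 luminal progenitor genes 4 rose, 1 fell and 5 were not called (median 0.95), beside 7.05% higher and 7.37% lower over all genes tested. At an unadjusted p under 0.05, 5 were higher and 3 lower. The lower call, named after its values were seen, was Kit (log2 fold change -1.38, adjusted p = 0.0302 by edgeR). It was at 8.58 and 12.7 CPM in PyMT, 17.6 and 15.1 in BRCA1-null and 39.3 and 55.7 in Neu. Lcn2 was a higher call, at 15730 and 14860 CPM in PyMT and 9959 and 9756 in Neu. Ltf was at 6340 and 3688 CPM in PyMT and 19.9 to 105.5 in the other 4 tumors (log2 fold change 6.77, standard error 0.505, adjusted p = 0.00269 by edgeR), and Aldh1a3 at 210.5 and 109.1 against 1.42 to 30.7 (4.73, standard error 0.407, adjusted p = 0.00344). Tspan8, a tetraspanin, passed against the mean (2.18, adjusted p = 0.00507) but was higher in Neu (621.9 and 647.5 CPM) than in PyMT (340.7 and 352.7), and lost the call without PyMT B (0.0505). Without BRCA1-null B 7 of the 10 rose and without PyMT B 2 did. The PyMT libraries were also those with the most Krt8 and Krt18, keratins of luminal cells (6752 and 7546 CPM for Krt8 against 288 to 1260 in the other 4 tumors). Epcam, Cldn3, Cldn4 and Cd24a were highest in PyMT too, with Epcam in PyMT B (3119 CPM) close to Neu A (3077). Krt19, another luminal keratin, was at 345.8 and 16.9 CPM in PyMT and at 183.2 and 258.9 in BRCA1-null. The part of the luminal content in the kallikrein levels was not tested.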

How the data were processed

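The authors deposited unnormalized UMI counts for each gene in each barcode, from Cell Ranger and the mm10 reference. The processing notes name version 2.2.0 for replicate A and 4T1 and 3.0.2 for replicate B, and every matrix header names 3.0.2. Doublets were not removed. The genes and gene lists were chosen with earlier results of these data known. UMIs were summed per library over cells with at least 1000 UMIs, 500 genes and under 20% mitochondrial UMIs. The 6 libraries of 3 tumor types were tested with edgeR 4.0.16 (R 4.3.3, TMM, filterByExpr, quasi-likelihood, design of tumor type, Benjamini-Hochberg over all genes tested, threshold 0.05), and 4T1, a single library, was left out of tests. Each replicate was a separate tumor, in PyMT a separate graft of the FF99WT line. The paper states that replicates were sequenced in a second batch, without naming the letters. The letter was taken as that batch, which would pair the libraries. The deviations of B from A correlated at r of 0.0592, 0.118 and 0.169. For shares per cell, UMIs were thinned to 3000 per cell with a fixed seed. Named were the 5 genes, other kallikreins past the test or at 1 CPM, up to 3 genes per list by adjusted p, the 5 most alike genes and fixed split genes. Alternatives were DESeq2 1.42.0, its size factors, no filter, 3 other cell filters, the replicate block, each library left out and other thinning. On simulated data for BRCA1-null against Neu with 13950 genes, 100 of them changed at each size, 31% of 4-fold and 84% of 16-fold changes were called. Python 3.11.15 with SciPy 1.17.1 was used for cells.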

Additional observations from a re-analysis of the deposited data

How the results depend on the processing

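With 2 tumors a type, differences of 4-fold were often missed in the simulation of BRCA1-null against Neu (31% called, against 84% at 16-fold). No size between these was simulated. Few UMIs limit Klk7, Klk11 and Klk13. Where a library is left out, its type has 1 library, assumed to vary like the others. Differences of PyMT from the other types also hold the FF99WT line and transplantation, which cannot be told apart from the oncogene. The PyMT spread is between grafts of that line, not tumors of separate origin, and it enters the edgeR tests.

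The members between BRCA1-null and Neu ranged, with each library left out in turn, from 1.68 to 2.10 in log2 fold change for Klk6, -2.10 to 5.57 for Klk7, 0.92 to 7.75 for Klk8, 0.48 to 2.60 for Klk10 and -2.06 to 7.17 for Klk11. The values of Klk7 and Klk11 are fitted against Neu groups of 1 UMI and are no usable folds. Without BRCA1-null B the BRCA1-null group has no UMI of either gene, so the counts fix the negative sign of -2.10 and -2.06. With the replicate block Klk8 was at 6.17 (adjusted p = 0.0589 by edgeR); this pairing changed no other call of the 5 genes and moved no count of all genes called by over 1.5 times. With DESeq2 Klk10 was at 1.96 and Klk11 at 5.42 (adjusted p = 0.0121 and 0.0250), and with no filter on low counts at 1.89 and 5.12 (0.000107 and 0.000365). Without the BRCA1-null B cell with most Klk10, chosen after seeing the data, Klk10 was at 1.64 (adjusted p = 0.0691 by edgeR) and the calls of the 5 genes did not change.

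Genes called between BRCA1-null and Neu numbered 425 to 2633 higher and 420 to 2035 lower with each library left out. For PyMT they numbered 119 to 2027 higher and 61 to 1546 lower. DESeq2 gave 1482 and 1838 for PyMT and no filter 1596 and 2031, against 984 and 1028. With each library left out, list genes called in PyMT as higher and lower ranged from 0 to 8 and stayed at 0 for other kallikreins, 0 to 4 and 0 to 2 for inhibitors, 1 to 5 and 0 to 2 for substrates and receptors, 0 to 5 and 0 to 1 for other serine proteases, 0 to 3 and 0 to 4 for the cornified epithelium, and 2 to 7 and 0 to 1 for luminal progenitors. With the replicate block 1 substrate or receptor was lower and 5 serine proteases higher. With DESeq2 4 serine proteases were higher, and in the cornified epithelium 1 was higher and 4 lower, with 2 luminal progenitor genes lower. With no filter 7 serine proteases were higher and 1 lower, 3 cornified genes higher and 6 lower and 2 luminal progenitor genes lower. With every barcode 1 serine protease was higher.

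The Klk6 mean in BRCA1-null was 1.61 CPM with every barcode and 1.80 as plain CPM. Shares of cells move with depth by construction. For Klk10 they were 40.9% and 33.4% (PyMT A and B) at 1500 UMIs, 62.0% and 54.6% at 6000, and 63.3% and 71.7% not thinned. For Klk6 they were 5.64% and 7.82%, 12% and 17.3%, and 13.0% and 28.4%, and 8.87% in PyMT A with a mitochondrial limit of 10%, which redraws the UMIs. The mean over all draws of 3000 UMIs, added after seeing the data, was 50.6% and 44.2% for Klk10 and 8.30% and 12.3% for Klk6. Co-detection of Klk6 and Klk10 fell to 1.37 and 1.21 times the product of shares when cells were not thinned.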

Other observations

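A single BRCA1-null B cell, noticed after the values were seen, held 252 of the 1095 Klk10 UMIs of its library (23.0%), and the next cell held 59. In Neu and BRCA1-null A no cell held more than 2. The cell had 36824 UMIs and 5298 genes, with 530 Ltf, 80 Krt8, 38 Epcam, 16 Aldh1a3 and 7 Klk11 UMIs, 2 Krt14 UMIs and no Klk6 or Klk8 UMI. Without it Klk10 was at 27.0 CPM in BRCA1-null B. Klk11 in the same library went from 1.41 to 1.19 CPM.

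In the 4T1 library the cell with most Klk10 held 7 UMIs, and 157 Ltf UMIs.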
